A study of Mus musculus with 384 samples.

Results

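The 7 genes described here, Rgs5, Notch3, Kcnj8, Abcc9, Ndufa4l2, Higd1b and Cspg4, are markers of pericytes, the contractile cells that wrap capillaries. They were taken by name from known marker genes, with earlier results of these data already known, and all 7 were among the 40594 genes listed in both deposited count tables, each with 1 identifier. The libraries were single cells of mouse kidney at 8 weeks of age, sorted by antibody into wells and amplified well by well (FACS-seq). The first gate took PDGFRB+ cells without CD45 (CD45- wells) and the second took PDGFRB+ cells with CD45 (CD45+ wells), and both were sorted in 2 batches, giving 4 plates of 96 wells. The labels leave "uuo", a part of every well name, unexplained and no animal or donor is named, so no test was run and no p-value is given; each plate is described as 1 sample. Intervals are exact 95% intervals and cover counting error only, since reads without molecular identifiers are not independent molecules.

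Pericytes sit on the outside of small vessels within the endothelial basement membrane, and in the kidney they grade into vascular smooth muscle, mesangial cells, renin cells and fibroblasts, with which they share PDGFRB. Rgs5 encodes a regulator that shuts off G-protein signals. Notch3 encodes the Notch receptor of mural cells, which Jagged ligands on endothelial cells activate. Kcnj8 and Abcc9 encode the pore (Kir6.1) and the regulatory subunit (SUR2) of the vascular ATP-sensitive potassium channel. Ndufa4l2 and Higd1b encode small mitochondrial proteins, the first of them induced by hypoxia, and Cspg4 encodes the surface proteoglycan NG2.

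RefSeq promoters (GRCm38.p6, 250 bases before to 50 after the start) were matched for 5 of the 7 genes by symbol: Rgs5, Notch3, Kcnj8, Abcc9 and Cspg4. The promoters of Rgs5 and Notch3, whose wells overlapped, are shown with that of Kcnj8, whose wells held Notch3 in no case. They lie at chr1:169655251-169655550 on the plus strand, chr17:32166841-32167140 on the minus strand and chr6:142571565-142571864 on the minus strand. Capitals mark matches, on either strand, to the TATA box TATAAA, to the box CCAAT, to the GC box GGGCGG, to the RBPJ core TGGGAA of Notch targets, and to the hypoxia-factor core ACGTG and its variant form GCGTG.
Rgs5: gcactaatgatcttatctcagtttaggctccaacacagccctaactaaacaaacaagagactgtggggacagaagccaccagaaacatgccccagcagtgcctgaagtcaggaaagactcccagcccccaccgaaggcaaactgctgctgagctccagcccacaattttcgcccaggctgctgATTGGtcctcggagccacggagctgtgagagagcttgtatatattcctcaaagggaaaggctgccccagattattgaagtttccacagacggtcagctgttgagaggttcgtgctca
Notch3: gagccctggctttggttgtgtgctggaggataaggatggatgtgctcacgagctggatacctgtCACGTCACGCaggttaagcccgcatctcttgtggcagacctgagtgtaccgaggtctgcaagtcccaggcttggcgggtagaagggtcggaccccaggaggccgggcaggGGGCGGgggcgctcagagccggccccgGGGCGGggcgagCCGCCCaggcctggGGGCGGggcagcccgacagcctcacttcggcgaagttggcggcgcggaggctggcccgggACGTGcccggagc
Kcnj8: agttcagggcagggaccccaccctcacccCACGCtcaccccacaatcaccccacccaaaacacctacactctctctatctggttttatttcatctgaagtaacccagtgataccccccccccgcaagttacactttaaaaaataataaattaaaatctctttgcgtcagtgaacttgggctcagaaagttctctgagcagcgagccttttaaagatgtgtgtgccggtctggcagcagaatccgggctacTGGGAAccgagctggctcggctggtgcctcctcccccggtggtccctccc
The Rgs5 window held 1 CCAAT match, a motif found in 37.4% of 32851 promoters of this length. The Notch3 window held 4 GC boxes (35.7% of promoters hold at least 1) and 3 hypoxia-factor cores (43.8%), of which 2 adjoin in 1 run of capitals. The Kcnj8 window held 1 hypoxia-factor core and 1 RBPJ core (25.6%). TATAAA, found in 13.6% of promoters, had no match in any of the 5 windows, nor did the CArG box of smooth muscle genes, found in 1.63%. A match is a description of letters and not evidence of a bound site.

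Wells with at least 50000 reads on genes and 500 genes with a read were used for counts of wells: 79 and 82 CD45- wells and 76 and 78 CD45+ wells of batches 1 and 2. Their median depth lay between 287380 and 348004 reads. A well is said to hold a gene at 100 CPM (counts per 1000000 reads on genes) or more, which is at least 5 reads in the shallowest well allowed. CPM was not divided by transcript length, so numbers of wells are compared between groups for 1 gene and not between genes. The gates followed their labels for CD45: its gene Ptprc had 0.14 and 0.98 CPM in CD45- plates (batches 1 and 2), against 469 and 303 CPM in CD45+ plates. Pdgfrb had 294 and 220 CPM in CD45- plates but 0.11 and 5.73 CPM in CD45+ plates, although both gates were sorted on the PDGFRB protein.

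Rgs5 was held by 15 of 79 CD45- wells in batch 1 (18.99%, interval 11.03 to 29.4) and by 10 of 82 in batch 2 (12.2%, 6.01 to 21.3). Levels in the wells that held it spanned 102 to 6075 CPM in batch 1 (median 531) and 134 to 1316 CPM in batch 2 (median 575). In the CD45+ gate 3 of 76 and 5 of 78 wells held Rgs5. The threshold did not fall in a gap for this gene: the nearest well below it in batch 1 (replicate 86) stood at 99.7 CPM and the lowest above it at 102 CPM.

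Notch3 was held by 8 of 79 CD45- wells in batch 1 (10.1%, 4.47 to 18.98), at 125 to 1093 CPM. In batch 2 it was held by 3 of 82 (3.66%, 0.761 to 10.3), at 278, 737 and 804 CPM. In CD45+ plates 2 of 76 wells held it in batch 1 and 0 of 78 in batch 2, which allows a share of up to 4.62%. Notch3 wells were thus found in both batches, and more of them in batch 1, with intervals that overlap.

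Of the channel genes, Kcnj8 was held by 4 of 79 CD45- wells in batch 1, at 123, 125, 204 and 564 CPM. In batch 2 it was held by 6 of 82 wells, at 235, 327, 359, 600, 811 and 1092 CPM. Abcc9 was held by 4 of 79 wells in batch 1, at 317, 328, 376 and 1651 CPM, and by 2 of 82 in batch 2, at 123 and 143 CPM. Each of them was held by 1 CD45+ well in batch 1, and Kcnj8 by 1 and Abcc9 by 0 in batch 2. Both channel genes were therefore rare in either batch, in no more than 7.32% of CD45- wells.

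Ndufa4l2 was held by 32 of 79 CD45- wells in batch 1 (40.5%, 29.6 to 52.1) and by 15 of 82 in batch 2 (18.3%, 10.6 to 28.4). Its levels in those wells spanned 109 to 7998 CPM (median 939) and 144 to 6884 CPM (median 755). In the CD45+ gate it was held by 5 of 76 and 2 of 78 wells. A read of Ndufa4l2 was present in 77 of 79 and 75 of 82 CD45- wells, with a median of 20.4 and 11.9 CPM in the wells under 100 CPM, so the presence of a read did not separate wells for this gene.

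Higd1b was held by 5 of 79 CD45- wells in batch 1, at 993, 1026, 1777, 9390 and 15843 CPM, and by 2 of 82 in batch 2, at 1214 and 2781 CPM. No other CD45- well with at least 50000 reads exceeded 89.6 CPM in batch 1 or 55.8 CPM in batch 2, so a gap of at least 10-fold lay between these wells and the rest at this depth. Among the shallower kept wells, with 10000 to 50000 reads, 5 of 14 in batch 1 and 1 of 11 in batch 2 also held Higd1b, which made 10 and 3 wells in all. At that depth a gene can be held with fewer than 5 reads, and low-level Higd1b reads were widespread in batch 1. The shallower wells can therefore not be taken as like the deeper ones. Cspg4 was held by 5 of 79 wells in batch 1 (8 with the shallower wells), at 176, 497, 744, 952 and 1028 CPM, and by 2 of 82 in batch 2, at 221 and 1338 CPM. Neither gene was held by any of the 76 and 78 CD45+ wells, which allows shares of up to 4.74% and 4.62%. At this level both genes were thus seen in CD45- wells of both batches and not in CD45+ wells.

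**Figure D1:**
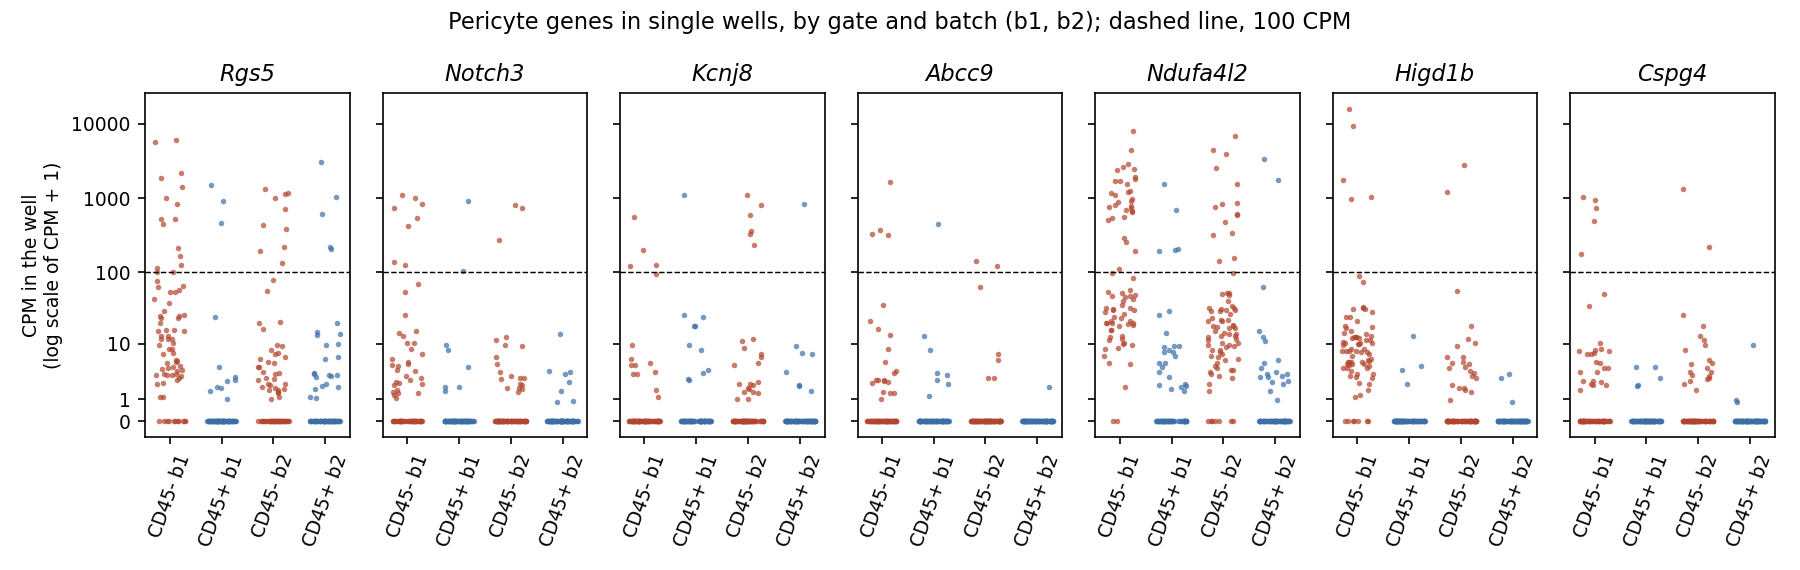
Level of each pericyte gene in every well used, as CPM on a log scale of CPM + 1, with CD45- wells in red and CD45+ wells in blue for batch 1 (b1) and batch 2 (b2); each point is 1 well and the dashed line marks 100 CPM. Higd1b shows a gap between the wells at 993 CPM and above in batch 1 and the many wells under 89.6 CPM, whereas Ndufa4l2 fills the range continuously.

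Low-level reads of Higd1b were widespread in 1 plate. A read was present in 72 of 79 CD45- wells of batch 1 but in 24 of 82 of batch 2, and after thinning every well to 50000 reads in 36 (45.6%) and 5 (6.10%). In batch 1 the wells under 100 CPM had a median of 7.73 CPM, in the plate where replicate 80 alone carried 3114 of the 6418 Higd1b reads. Reads also appeared across plates: the CD45+ wells at the same plate position as the 5 and 2 CD45- wells that held Higd1b each had a read of it, 5 of 5 and 2 of 2, against 0 of 87 and 1 of 88 at other positions. Summed over the 7 genes, the CD45+ well at the same position had a read in 25 of 69 cases (36.2%) in batch 1 and 14 of 39 (35.9%) in batch 2, against 55 of 575 (9.57%) and 63 of 591 (10.7%) at other positions. For the top CD45- well of a gene and batch, the CD45+ well opposite had 0 to 2 reads, except for Ndufa4l2 in batch 1, where the well opposite replicate 82 (2486 reads) had 98. Of the 20 cases of a CD45+ well holding a gene of the set, 4 lay opposite a CD45- well that held the same gene: Ndufa4l2 in replicates 82 (208 CPM) and 87 (200.1 CPM) of batch 1, and Rgs5 in replicates 16 (218 CPM) and 18 (208 CPM) of batch 2. Wells carried their own barcodes and plates a separate index, per the labels' protocols, and the source of these reads was not tested.

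Counted together, 38 of 79 CD45- wells in batch 1 and 28 of 82 in batch 2 held at least 1 of the 7 genes. At least 2 were held by 18 wells in batch 1 (22.8%, 14.1 to 33.6) and by 7 in batch 2 (8.54%, 3.50 to 16.8). In CD45+ plates 10 of 76 and 6 of 78 wells held at least 1, and 2 of 76 and 2 of 78 held at least 2. In batch 1, 7 wells held 2 genes, 6 held 3, 4 held 4 and 1 held 5. In batch 2, 4 wells held 2 genes, 1 held 3 and 2 held 4. No well of either gate held 6 or all 7, so the complete marker set was not seen in any cell at this level.

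Ndufa4l2 was the gene the wells with at least 2 had in common: it was held by 18 of 18 in batch 1 and by 6 of 7 in batch 2. Rgs5 was held by 11 of 18 and 5 of 7 of them, and Notch3 by 7 of 18 and 2 of 7. Without Ndufa4l2, which most wells carry at a low level, 11 and 4 wells held at least 2 of the other 6 genes. Ndufa4l2 itself counts toward the class of at least 2 genes, so part of its share there is built in. Higd1b and Cspg4 were never held alone, whereas Ndufa4l2 was the single gene held in 14 wells of batch 1 and 9 of batch 2, Rgs5 in 4 and 5, and Kcnj8 in 1 and 4. The wells with at least 2 genes had a median of 392223 reads in batch 1 and 366813 in batch 2, those with 1 gene 357566 and 448050, and those with none 255990 and 282064; the part of depth in these counts was not tested.

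The well with 5 genes, replicate 45 of batch 1, held Rgs5 at 827, Notch3 at 729, Ndufa4l2 at 906, Higd1b at 1026 and Cspg4 at 952 CPM. It also held 7 of the 12 endothelial genes listed, with Pecam1, an endothelial adhesion molecule, at 1030 CPM, so its reads spanned pericyte and endothelial markers. Replicate 66 of batch 1 held the highest Rgs5 level of any CD45- well, 6075 CPM, with Notch3 at 430, Ndufa4l2 at 4407 and Higd1b at 1777 CPM. In that well Acta2, the smooth muscle actin, stood at 13508 CPM and Col1a1, a chain of collagen I, at 184 CPM. Replicate 47 held Rgs5, Notch3, Ndufa4l2 and Cspg4 together with Acta2 at 19607 and Myh11, the smooth muscle myosin, at 2395 CPM. In batch 2 the wells with 4 genes were replicate 18, with Rgs5, Notch3, Ndufa4l2 and Cspg4, and replicate 35, with Rgs5, Ndufa4l2, Higd1b and Cspg4. Replicate 35 held Acta2 at 19328 and Myh11 at 2873 CPM, and replicate 18 held them at 3987 and 1052 CPM.

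**Figure D2:**
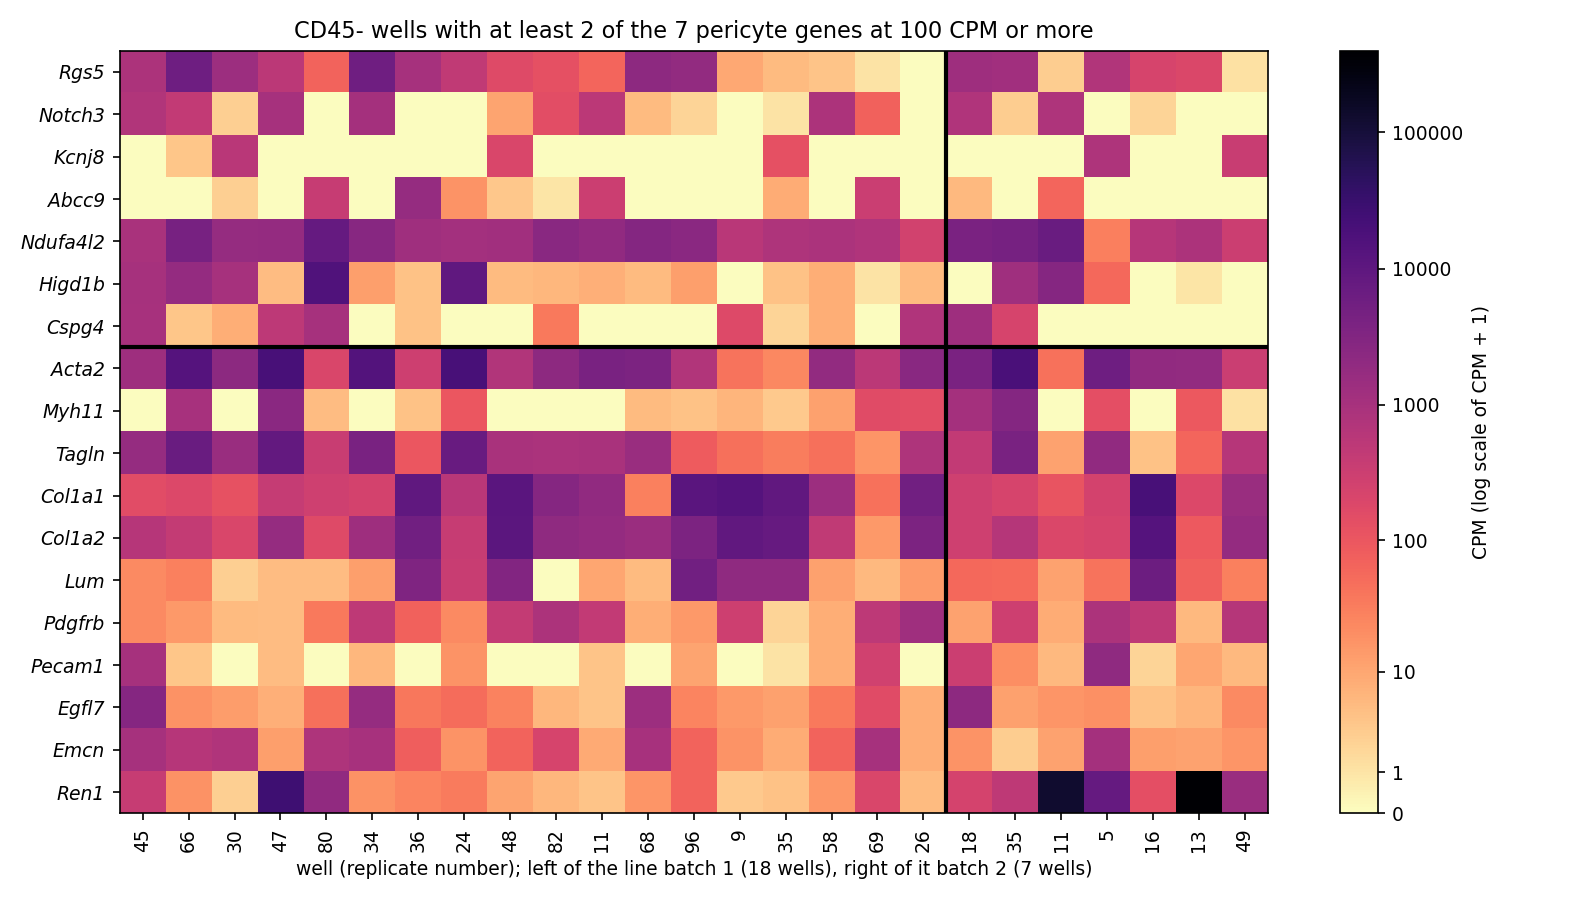
Heat map of CPM (colour, log scale of CPM + 1) in the CD45- wells that held at least 2 pericyte genes, 18 of batch 1 left of the line and 7 of batch 2 right of it; the 7 pericyte genes are above the horizontal line and smooth muscle, collagen, fibroblast, endothelial and renin genes below it. Ndufa4l2 is at 100 CPM or more in all wells but 1, replicate 5 of batch 2.

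Of the 21 pairs of pericyte genes, 18 were held together by at least 1 CD45- well in batch 1 and 12 in batch 2; the 12 were found in both batches. The most frequent pair was Rgs5 with Ndufa4l2, in 11 wells of batch 1 and 4 of batch 2. Ndufa4l2 was held by 11 of 15 wells with Rgs5 (73.3%) and 21 of 64 without (32.8%) in batch 1, and by 4 of 10 with Rgs5 and 11 of 72 without (15.3%) in batch 2. Notch3 was held by 5 of 15 wells with Rgs5 and 3 of 64 without in batch 1, and by 1 of 10 with and 2 of 72 without in batch 2. Higd1b was held by 4 of 15 wells with Rgs5 and 1 of 64 without in batch 1, and by 1 of 10 with and 1 of 72 without in batch 2. Cspg4 was held by 2 of 15 wells with Rgs5 and 3 of 64 without in batch 1, and by 2 of 10 with and 0 of 72 without in batch 2. The share was thus at least 2-fold higher in wells with Rgs5 in both batches for 4 of the 6 other genes (Ndufa4l2, Notch3, Higd1b and Cspg4), and the same was true of 5.64% of the 6006 other genes held by at least 2 wells in each batch. In batch 2 it rests on 1 well each for Notch3 and Higd1b. The 6006 genes were not matched to these genes for the number of wells holding them, which limits the comparison.

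Around Ndufa4l2 the same genes stood out. Rgs5 was held by 11 of 32 wells with Ndufa4l2 (34.4%) and 4 of 47 without (8.51%) in batch 1, and by 4 of 15 with (26.7%) and 6 of 67 without (8.96%) in batch 2. Notch3 was held by 7 of 32 wells with and 1 of 47 without in batch 1, and by 2 of 15 with and 1 of 67 without in batch 2. Each well that held Higd1b or Cspg4, 5 and 2 wells for either gene, also held Ndufa4l2. Ndufa4l2 itself was held by 27 of 74 and 13 of 80 wells without Higd1b. Again 4 of 6 genes (Rgs5, Notch3, Higd1b and Cspg4) passed 2-fold in both batches, against 7.49% of the 6006 other genes. Those genes were again not matched for the number of wells holding them. Across the 3279 genes held by at least 5 wells in each batch, the median difference in share between wells with and without Ndufa4l2 was 3.72 and 5.07 percentage points, against -0.83 and 0.56 points for Rgs5, so wells with Ndufa4l2 held slightly more genes of most kinds.

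Kcnj8 and Abcc9 did not follow this pattern in both batches. Their proteins form 1 channel and the genes are neighbours on chromosome 6, with 0 protein-coding genes between them in RefSeq, yet no well held both. With 4 and 6 wells of Kcnj8, a share of Abcc9 of up to 60.2% and 45.9% was still allowed, so the absence of the pair was not informative at these numbers. Kcnj8 with Notch3 and Kcnj8 with Cspg4 were the other pairs held by no well. The 10 Kcnj8 wells were mixed in their other genes: Lum, a matrix proteoglycan of fibroblasts, was held by 3 of 4 in batch 1 and 2 of 6 in batch 2, and at least 2 endothelial genes by 1 of 4 and 3 of 6. Of the Abcc9 wells, 4 of 4 in batch 1 held Ndufa4l2 and 0 of 2 in batch 2 did. The other subunits of this channel type, Kcnj11 and Abcc8, were at most at 2.61 CPM in any plate.

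Collagen I was present in nearly all wells at 100 CPM, whichever pericyte genes they held. This level was also passed by reads of another cell type: Hbb-bs, a globin gene of red cells, was held by 18 of 18, 20 of 20 and 41 of 41 wells with at least 2, 1 and none of the 7 genes in batch 1, at medians of 2762, 2897 and 3971 CPM, so 100 CPM of an abundant transcript does not show that the sorted cell made it. Col1a1 or Col1a2 reached that level in 17 of 18, 20 of 20 and 38 of 41 wells with at least 2, 1 and none of the 7 genes in batch 1, and in 7 of 7, 20 of 21 and 50 of 54 in batch 2. At 1000 CPM, a level added after the values were seen, the shares were 12 of 18, 15 of 20 and 20 of 41 in batch 1 and 2 of 7, 18 of 21 and 20 of 54 in batch 2. High collagen I was thus most frequent in the wells with exactly 1 pericyte gene in both batches, and the order of the other classes differed between batches. Ndufa4l2 was the gene held in 14 of the 20 wells with 1 gene in batch 1 and in 9 of the 21 in batch 2. Of all wells with Ndufa4l2, those with further pericyte genes included, 24 of 32 and 10 of 15 reached 1000 CPM of collagen I.

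The wells with Higd1b were low in collagen I. Col1a1 stood at 122, 153, 184, 290 and 553 CPM in the 5 wells of batch 1 and at 112 and 218 CPM in the 2 wells of batch 2. None of them reached 1000 CPM of either collagen I gene (0 of 5 and 0 of 2), whereas 47 of 74 and 40 of 80 wells without Higd1b did. With 5 and 2 wells the counts allow wide ranges, and the contrast was noticed in these data. Notch3 wells were different: 6 of 8 in batch 1 and 1 of 3 in batch 2 reached 1000 CPM of collagen I.

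Acta2 at 1000 CPM was most frequent in the wells with at least 2 pericyte genes in both batches, which was not so for collagen I. That level was added after the values were seen. At 100 CPM, Acta2 differed little between the classes of batch 1. It reached 100 CPM in 16 of 18, 17 of 20 and 35 of 41 wells with at least 2, 1 and none of the genes in batch 1, and in 6 of 7, 16 of 21 and 29 of 54 in batch 2. At 1000 CPM the shares were 11 of 18 (61.1%), 7 of 20 and 14 of 41 (34.1%) in batch 1 and 5 of 7 (71.4%), 9 of 21 and 11 of 54 (20.4%) in batch 2. Acta2 was held at 100 CPM by all 15 and all 10 wells with Rgs5, against 53 of 64 and 41 of 72 without. Acta2 at 1000 CPM or more together with Col1a1 under 1000 CPM, a class also drawn after the values were seen, was found in 7 of 18 (38.9%), 1 of 20 and 3 of 41 (7.32%) wells with at least 2, 1 and none of the genes in batch 1. In batch 2 it was found in 4 of 7 (57.1%), 0 of 21 and 4 of 54 (7.41%). All 7 and all 4 of the wells in this class with at least 2 genes held Rgs5. The class does not use Col1a2, which stood at 1287, 1679 and 1467 CPM in replicates 34, 47 and 68 of batch 1. In the rest of these wells Col1a2 was under 1000 CPM. Myh11 was held by 5 of 18 and 3 of 7 wells with at least 2 genes and by 2 of 41 and 3 of 54 with none.

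**Figure D3:**
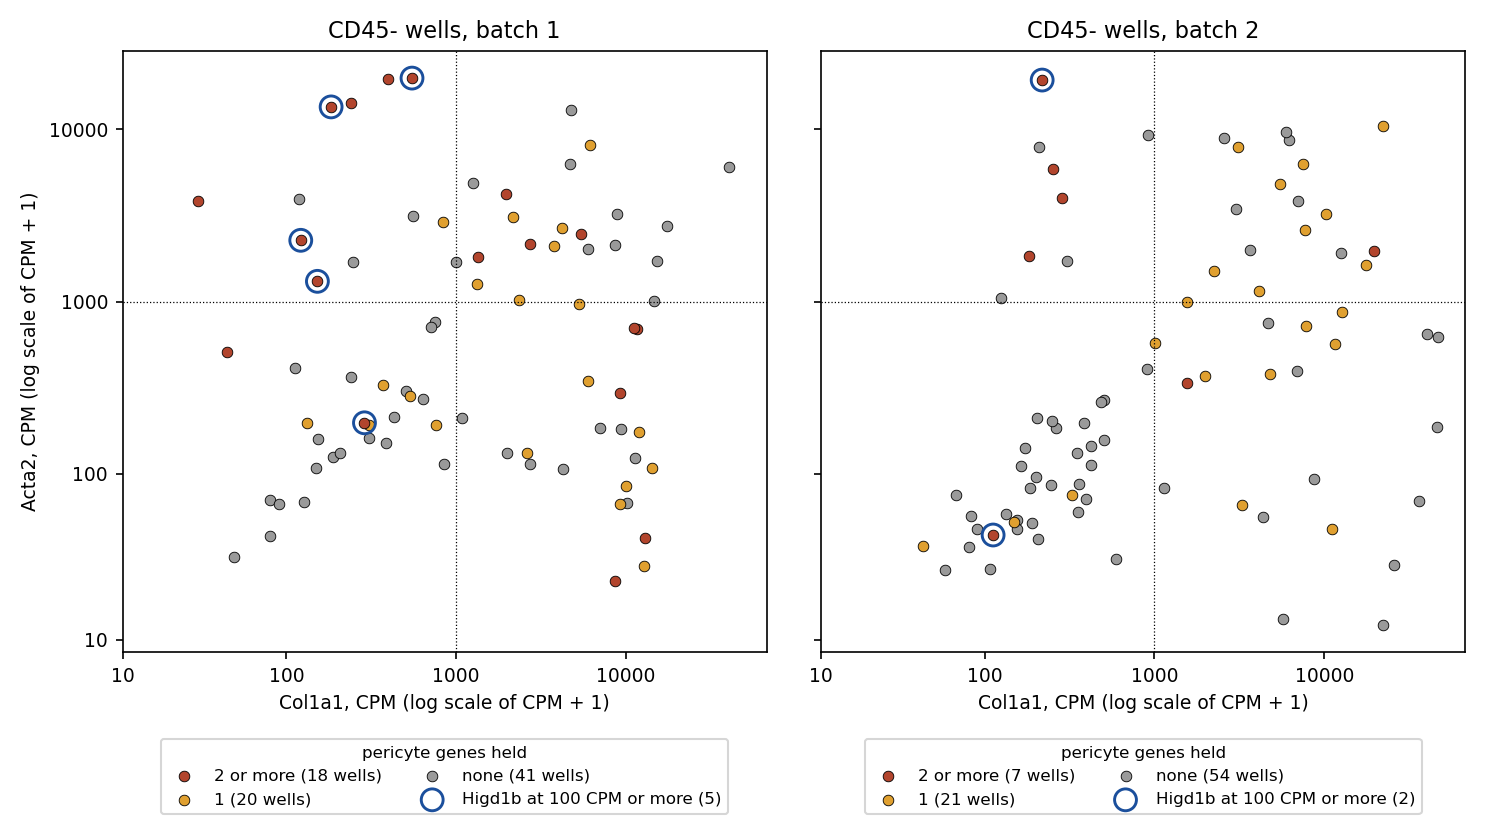
Acta2 against Col1a1 in each CD45- well, both in CPM on a log scale of CPM + 1, by batch; colour gives the number of pericyte genes held, blue rings mark wells that held Higd1b and dotted lines mark 1000 CPM. The upper left field, high Acta2 with low Col1a1, holds 7 of 18 and 4 of 7 of the wells with at least 2 pericyte genes and 3 of 41 and 4 of 54 of those with none.

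Endothelial genes had no fixed relation to the pericyte genes across settings. At least 2 of the 12 listed endothelial genes were held by 6 of 18 (33.3%), 5 of 20 and 18 of 41 (43.9%) wells with at least 2, 1 and none of the 7 genes in batch 1, and by 2 of 7 (28.6%), 7 of 21 and 24 of 54 (44.4%) in batch 2. With wells of at least 10000 reads, the counts for at least 2 and none were 13 of 25 and 20 of 44 in batch 1, and 4 of 9 and 25 of 55 in batch 2, so the order of the classes depended on the depth required. At 50 CPM the order was reversed in batch 1 (13 of 26 and 18 of 37) and kept in batch 2 (3 of 8 and 24 of 50). At 500 CPM it was kept in batch 1 (4 of 12 and 20 of 49) and reversed in batch 2 (2 of 4 and 24 of 67). Within the wells with at least 2 pericyte genes, those rich in endothelial genes were few: 7 endothelial genes were held by replicates 45 and 69, and 6 by replicate 30, all of batch 1. Replicate 30 held Rgs5, Kcnj8, Ndufa4l2 and Higd1b, and replicate 69 held Abcc9 and Ndufa4l2. In batch 2, replicates 5 (Rgs5 and Kcnj8) and 18 held 5 each. Ptprc was held by 0 of the 18 and 0 of the 7 wells, but this gate was sorted without CD45 and its plates had 0.14 and 0.98 CPM of Ptprc. Another gene of the leukocyte list, Cd74, stood at 1253 and 2095 CPM in replicates 45 and 66 of batch 1. In batch 2 it stood at 647, 3011 and 2552 CPM in replicates 5, 18 and 35. The other wells with at least 2 pericyte genes were under 100 CPM of Cd74.

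Heyl, a transcription factor gene switched on by Notch signals, was held by 3 of 18 and 4 of 7 wells with at least 2 pericyte genes and by 2 of 41 and 3 of 54 with none. Beside the receptor gene it differed between batches: 0 of 8 wells with Notch3 (which allows up to 36.9%) and 9 of 71 without held Heyl in batch 1, and 2 of 3 with Notch3 and 9 of 79 without in batch 2. Pdgfrb, which defined the sort, was held by 7 of 18 and 4 of 7 wells with at least 2 pericyte genes and by 11 of 41 and 12 of 54 with none, so its transcript was often under 100 CPM in single wells that the antibody had selected.

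The genes whose wells overlapped most with the wells holding at least 2 pericyte genes were ranked by the Jaccard index, wells with both over wells with either, taking the smaller index of the 2 batches over 3145 genes. Pcp4l1 led, with indices of 0.40 and 0.42 (8 and 5 shared wells), against a median of 0.05 for all genes compared. It was followed by Mustn1, Ptp4a3, Myh11, Ndrg2, Mocs2, Sncg and Akr1b7, with smaller indices of 0.27 to 0.21. For Rgs5 alone Pcp4l1 also came first (0.32 and 0.25), then Col8a1, Atp2b1 and Cbx5. For Ndufa4l2 they were Snrpe, Ccdc124, Tubb6 and Sparcl1, at 0.35 to 0.33 against a median of 0.10. No pericyte gene was as high with Ndufa4l2: Rgs5 reached 0.31 and 0.19. The index is capped by the number of wells, so a gene held by few wells could not come as high. Higd1b and Cspg4 each stood at 0.16 and 0.13 although all their wells held Ndufa4l2. The 5 genes other than Rgs5 and Ndufa4l2 had too few wells for a ranking of their own.

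At the level of whole plates, where reads of all wells with at least 10000 reads were summed, 4 of the 7 genes were called higher in CD45- plates, by a log2 ratio of CPM + 1 of at least 4-fold in both batches: Notch3, Ndufa4l2, Higd1b and Cspg4. The background was 12.9% of the 12882 genes tested. The median log2 ratio of the 7 genes was 2.91 and 2.71, and that of all genes tested 0.39 and 0.56. Each plate was 1 sample, and fewer cells of a type and less RNA per cell cannot be told apart in these sums.

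Higd1b had 219 and 47.01 CPM in the CD45- plates and 0.23 and 0.11 CPM in the CD45+ plates, which held 6 and 3 reads of it. The linear ratio was 965 (443 to 2631) and 446 (152 to 2165), and the log2 ratio of CPM + 1 was 7.48 and 5.44. It was 6.54 in batch 1 without CD45- replicate 80 and 3.86 in batch 2 without CD45- replicate 11. Cspg4 had 47.5 and 19.4 CPM in the CD45- plates and 0.23 and 0.11 CPM in the CD45+ plates, with 6 and 3 reads. Its linear ratio was 210 (96.1 to 573) and 184 (62.7 to 895) and its log2 ratio 5.31 and 4.21, the second of which was 2.34 without CD45- replicate 18. Both genes were thus nearly absent from the CD45+ plates, where part of the few reads lay opposite the CD45- wells that held the gene.

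Ndufa4l2 had 653 and 374 CPM in the CD45- plates and 43.996 and 56.5 CPM in the CD45+ plates, with log2 ratios of 3.86 and 2.71. The ratio was 4.54 in batch 1 without CD45+ replicate 5 and 4.35 in batch 2 without CD45+ replicate 68. Notch3 had 67.7 and 24.5 CPM in the CD45- plates and 11.9 and 0.28 CPM in the CD45+ plates (2.42 and 4.31). Its ratio was 4.85 in batch 1 without CD45+ replicate 86, and 3.68 in batch 2 without CD45- replicate 11. In the CD45+ plates the top well carried 88.5% of the Notch3 reads of batch 1 and 69.8% of the Ndufa4l2 reads of batch 2, but 39.7% of the Ndufa4l2 reads of batch 1 and 1 of the 8 Notch3 reads of batch 2. Leaving out any of the wells named kept the call.

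The other 3 genes were not called. Abcc9 had 35.6 and 4.53 CPM in the CD45- plates and 17.1 and 0.04 CPM in the CD45+ plates (1.02 and 2.42); the CD45+ level of batch 2 was 1 read, and the linear ratio there was 129 (22.8 to 5132). Without CD45+ replicate 20 its ratio in batch 1 was 4.84, and it then passed. Rgs5 had 226 and 97.3 CPM in the CD45- plates and 29.3 and 103 CPM in the CD45+ plates (2.91 and -0.08). Kcnj8 had 19.3 and 37.7 CPM in the CD45- plates and 29.1 and 13.8 CPM in the CD45+ plates (-0.57 and 1.39). For both genes the direction differed between the batches in these sums. With the mean of the wells' CPM in place of the sum, Rgs5 was higher in CD45- plates in both batches (2.70 and 1.35).

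**Figure D4:**
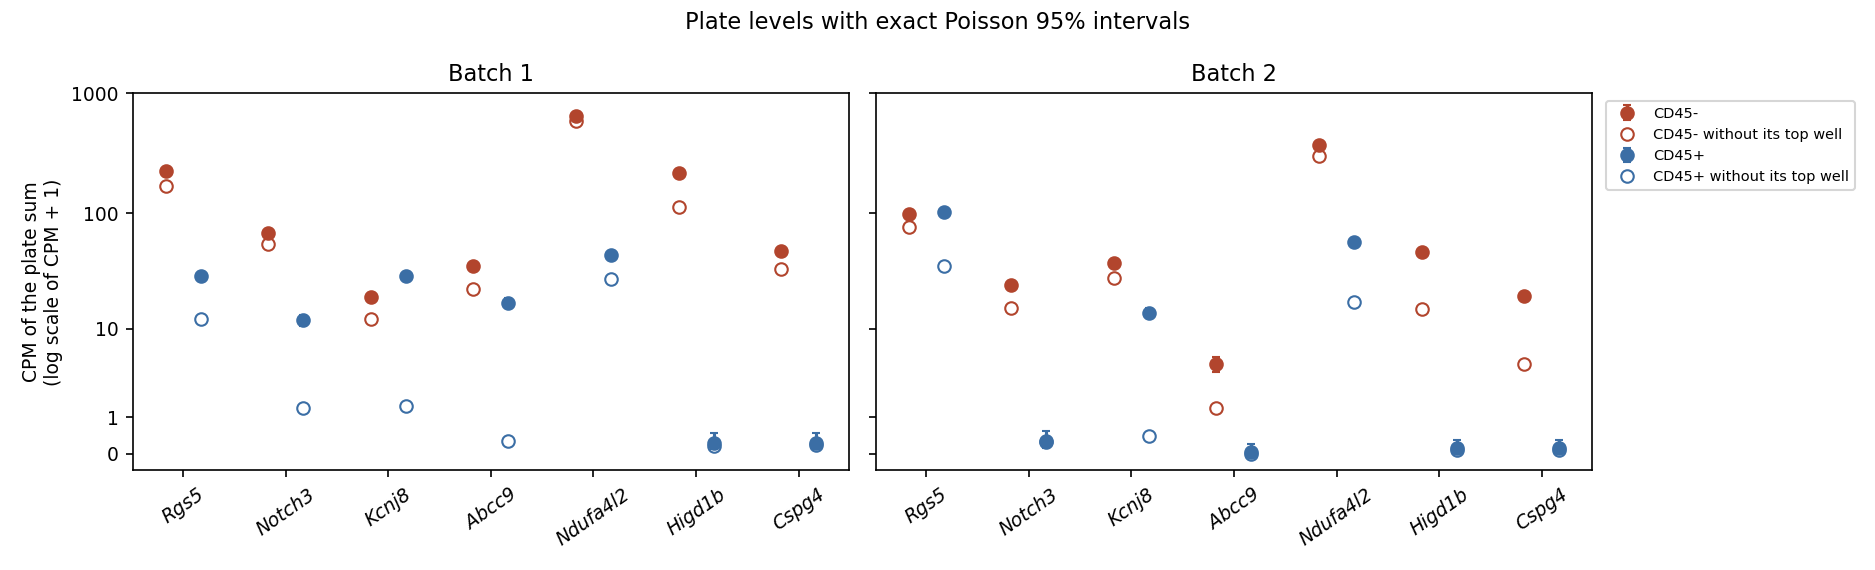
CPM of the summed reads of each plate (log scale of CPM + 1) for the 7 genes, CD45- in red and CD45+ in blue, by batch; bars are exact Poisson 95% intervals and open circles give the level without the plate's top well for that gene. The Kcnj8 level of the CD45+ plates and the Notch3 level of the CD45+ plate of batch 1 fall to near 1 CPM or below once their top well is left out, while Rgs5 in CD45+ of batch 2 stays at 35.6 CPM.

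The CD45+ wells behind these levels were few and unlike each other. The wells with 2 pericyte genes were replicates 5 (Kcnj8 and Ndufa4l2) and 86 (Rgs5 and Notch3) of batch 1 and replicates 29 and 68 (Rgs5 and Ndufa4l2) of batch 2. Replicate 5 had Acta2 at 5269, Myh11 at 1204 and Col1a1 at 4351 CPM with Ptprc at 4.58 CPM, so its profile was that of the contractile and matrix genes. Replicate 86 had Rgs5 at 1513 and Notch3 at 918 CPM, with Acta2 at 2877, Ren1 (renin) at 9088 and Pecam1 at 1823 CPM. Replicate 68 of batch 2 had Rgs5 at 3037 and Ndufa4l2 at 1766 CPM beside Cd74, the invariant chain of antigen presentation, at 34383 CPM. Replicate 29 had Rgs5 at 1050 and Ndufa4l2 at 3386 CPM beside Cd74 at 40482 CPM. Whether such wells held more than 1 cell was not tested.

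Between the CD45- plates, the genes were mostly higher in batch 1. The log2 ratio of batch 1 over batch 2 was 1.21 for Rgs5, 1.43 for Notch3, 2.72 for Abcc9, 2.19 for Higd1b and 1.25 for Cspg4, and these 5 of 7 were at least 2-fold higher in batch 1, against 20.2% of the 12097 genes tested. None was 2-fold higher in batch 2, against 31.5% of genes; Ndufa4l2 was at 0.80 and Kcnj8 at -0.93. The median of all genes was -0.20 and that of the 7 genes 1.25. Single wells decided several of these values. Rgs5 dropped under 2-fold without batch 1 replicate 66 (0.80) or 34 (0.998), and Cspg4 without replicate 45 (0.75) or 26 (0.96), while Cspg4 was at 3.12 without batch 2 replicate 18. Higd1b was at 1.25 without batch 1 replicate 80 and at 3.77 without batch 2 replicate 11, and Abcc9 at 2.09 without batch 1 replicate 36 and 3.94 without batch 2 replicate 79. Notch3 was at 2.07 without batch 2 replicate 11, and Ndufa4l2 then passed 2-fold, at 1.13. Kcnj8 was more than 2-fold lower in batch 1 without replicate 30, 35, 48 or 86 of batch 1, at -1.56 to -1.13. With the mean of the wells' CPM in place of the sum, Rgs5 was at 0.60 and so under 2-fold. Kcnj8 was then at -1.43, more than 2-fold higher in batch 2, and the other genes stayed on the same side of 2-fold. With 1 plate per batch, batch and biological difference cannot be told apart.

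Genes that act with the 7 were counted from fixed lists. Of 20 other pericyte markers, 9 were called higher in the CD45- plates (8 to 11 with any 1 well left out), with median log2 ratios of 4.11 and 1.99. The share over all genes tested was 12.9%, and the 9 include Pdgfrb, whose protein both gates were sorted on. The most abundant were Gucy1a3, a subunit of the nitric oxide receptor, at 675 and 230 CPM in CD45- plates against 108 and 49.1 CPM in CD45+ plates, and Pdgfrb. Gucy1a3 no longer passed once batch 2 CD45- replicate 56 was left out. The third, Gja4, encoding the gap junction protein connexin 37, had 170 and 188 CPM against 2.04 and 75.3 CPM and was not called, except without CD45+ replicate 68 of batch 2. P2ry14, a receptor for nucleotide sugars, had 50.3 and 199.5 CPM against 1.47 and 0.11 CPM and was called.

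Of 15 other Notch pathway genes tested, 2 were called higher in CD45- plates, Heyl and Notch4 (1 to 3 with any 1 well left out), a share close to the 12.9% of all genes. Heyl had 93.2 and 114 CPM in CD45- plates against 0.15 and 0.25 CPM in CD45+ plates. Notch4, the endothelial Notch receptor, had 13.2 and 45.5 CPM against 0.30 and 0.07 CPM, a call lost without CD45- replicate 10 of batch 1. Hes1, a widely used Notch target, had 489 and 284 CPM against 441 and 139 CPM and was not called.

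Of 8 other RGS genes, 2 were called higher in CD45- plates, Rgs4 (40.7 and 13.7 CPM against 0.04 and 0 CPM) and Rgs16. Another 3 were called higher in CD45+ plates, among them Rgs10 (71.6 and 25.3 CPM against 722 and 1044 CPM) and Rgs2 (91.6 and 27.1 CPM against 527 and 474 CPM). Of all 12882 genes tested, 12.9% were called higher in CD45- plates and 558 genes were called higher in CD45+ plates. Genes of this short list were thus called in either direction. Of 11 hypoxia-responsive genes and relatives of Ndufa4l2 and Higd1b that were tested, none was called higher in either gate (0 to 1 with any 1 well left out). Ndufa4, the widely expressed relative of Ndufa4l2, had 966 and 670 CPM in CD45- plates and 1051 and 818 CPM in CD45+ plates. Higd1a, the relative of Higd1b, had 57.5 and 56.02 CPM in CD45- plates and 24.1 and 17.95 CPM in CD45+ plates, so the gate difference of Higd1b had no counterpart of like size in it (log2 ratio 1.22 and 1.59 for Higd1a).

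Among markers of other cells that the CD45- gate could hold, 8 of 10 smooth muscle genes, 6 of 8 fibroblast genes, 2 of 5 mesangial genes, 2 of 12 endothelial genes, 1 of 2 renin cell genes and 0 of 10 tubule genes were called higher in CD45- plates, and 8 of 8 leukocyte genes higher in CD45+ plates. With any 1 well left out these counts were 8 to 9, 5 to 6, 1 to 2, 1 to 2, 1 to 2 and 0 to 1 in the same order. The share over all genes called higher in CD45- plates was 12.9%, near that of the endothelial genes. In the other direction, 558 of 12882 genes were called higher in CD45+ plates. Red cell genes, Hbb-bs among them, were also called higher in CD45- plates, 4 of 4 tested, with median log2 ratios of 9.90 and 6.75. A call between plates thus does not show that the sorted cells made the transcript.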

How the data were processed

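Single-cell FACS-seq libraries of mouse kidney were analysed from raw read counts per gene and well, which the authors deposited as 1 table per batch. The submitters' processing notes name featureCounts 1.4.5, Subread and STAR with version 3.0.4; the genome build is not given in the sources used here. Repeated lines with identical counts (598 of 41192 and 595 of 41228) were dropped. Plate totals were 26513530 to 31778475 reads, and values in other columns were not used (0 of them).

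Wells were numbered 1 to 96 within a plate in the order listed, so numbers name wells only. CPM is counts per 1000000 reads on genes. A well was kept with at least 10000 reads and 500 genes, and used for shares with at least 50000. Shares have exact Clopper-Pearson and CPM exact Poisson 95% intervals; linear ratios have exact binomial ones. Plate ratios are log2 of CPM with a pseudocount of 1, which understates ratios of low genes, and were computed for genes with a mean of at least 1 CPM over the 4 plates. Each plate was 1 sample, so no test was run.

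Named genes were the 7 members, the 8 genes with the largest smaller Jaccard index with wells holding at least 2 members (4 for a member held by at least 8 wells in each batch), and the most abundant genes of fixed lists; other list genes and wells were named after their values were seen. The members and lists were chosen with earlier results of these data known. The 2-fold rule for shares, the 1000 CPM level, leaving out Ndufa4l2, the same-position counts and the class of high Acta2 with low Col1a1 were added after seeing the data. Alternatives were 50 and 500 CPM, wells of at least 10000 and of at least 100000 reads, thinning to 50000 reads, keeping repeated lines, pseudocounts of 0.1 and 5, TMM factors (edgeR 4.0.16), mean CPM of wells and leaving out each well. Calculations used Python 3.11.15, pandas 2.3.3 and scipy 1.17.1, and the ratio and share functions were checked on simulated counts.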

Additional observations from a re-analysis of the deposited data

Results flagged for a closer look

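For Rgs5 the log2 ratio of CD45- over CD45+ plates was 2.91 in batch 1 and -0.076 in batch 2, so the batches differed in sign; the difference itself was not tested, since each gate had 1 plate per batch. Without CD45+ replicate 68 the batch 2 ratio was 1.43, and without CD45+ replicate 86 the batch 1 ratio was 4.11.

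For Kcnj8 the ratio was -0.57 in batch 1 and 1.39 in batch 2, again with opposite signs and not tested. Without CD45+ replicate 5 the batch 1 ratio was 3.03, and without CD45+ replicate 69 the batch 2 ratio was 4.80, so with those wells left out both batches were higher in CD45-. Without CD45- replicate 30 the batch 1 ratio was -1.19.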

How the results depend on the processing

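Of the values that answer a comparison, 66 settings were labelled the same, 6 moved, 2 stronger and 3 weaker. The label for the same was broad. In batch 1 it took in 26 and 12 wells with at least 2 pericyte genes, at 50 and 500 CPM, in place of 18. It also took in the changed endothelial shares given below. The log2 ratio of Rgs5 in batch 2, -0.076, turned to 1.35 with the mean of the wells' CPM and to 1.43 without CD45+ replicate 68, and that of Kcnj8 in batch 1, -0.57, to 3.03 without CD45+ replicate 5; the cause was not tested. No called ratio changed sign. With wells of at least 10000 reads, Higd1b was held by 10 and Cspg4 by 8 wells of batch 1, in place of 5 each. The share of wells with at least 2 pericyte genes that held at least 2 endothelial genes also rose. In batches 1 and 2 it was 52% and 44.4%, in place of 33.3% and 28.6%. Wells under 50000 reads can hold a gene with fewer than 5 reads. The endothelial share was 50% and 37.5% in batches 1 and 2 at 50 CPM, and 33.3% and 50% at 500 CPM. The number of CD45- wells with at least 2 pericyte genes, 18 in batch 1 and 7 in batch 2, was 53 and 24 where wells were thinned to 50000 reads and any read counted, 11 and 4 without Ndufa4l2, and 4 in batch 2 at 500 CPM. The share of these wells with collagen I in batch 1, 94.4%, was 100% among wells with at least 3 pericyte genes and 66.7% at 1000 CPM for collagen I; in batch 2, 100%, it was 25% with all genes read at 500 CPM and 28.6% at 1000 CPM for collagen I. The share with Acta2 in batch 1, 88.9%, was 100% among wells with at least 3 genes and 61.1% at 1000 CPM for Acta2. Among single genes, by the same labels, 162 settings were the same, 40 moved, 13 gained and 9 lost a call or count. The number of genes called higher in CD45-, 4, was 5 with the mean of the wells' CPM or a 2-fold rule, which added Abcc9, and 4 to 5 with 1 well left out. TMM factors put the median log2 ratio of all genes at 0.09 and 0.08 in place of 0.39 and 0.56, with the same 4 genes called. Shares in wells with few counts are limited by the number of wells, 5 and 2 for Higd1b and Cspg4. Gates were compared within each batch, and no paired test over plates was run.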

Other observations

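Several wells with pericyte genes were rich in Ren1, the renin transcript of juxtaglomerular cells, which are mural cells of the afferent arteriole. In batch 1, replicate 47 (Rgs5, Notch3, Ndufa4l2 and Cspg4) had Ren1 at 26421 CPM and replicate 80 (Abcc9, Ndufa4l2, Higd1b and Cspg4) at 1943 CPM, and the highest Ren1 level in a batch 1 CD45- well with none of the 7 genes was 218 CPM. In batch 2, replicate 13 (Rgs5 and Ndufa4l2) had Ren1 at 377426 CPM, replicate 11 (Notch3, Ndufa4l2 and Higd1b) at 131424 CPM and replicate 5 (Rgs5 and Kcnj8) at 7961 CPM. The highest Ren1 level in a batch 2 CD45- well with none of the 7 genes was 3613 CPM. In that plate 75 of 82 wells held Ren1 at 100 CPM or more, 50 of the 54 with no pericyte gene among them, so a Ren1 read at this level did not mark a renin cell there. Akr1b7, an aldo-keto reductase known from renin cells, was among the genes whose wells overlapped most with those holding at least 2 pericyte genes, with Jaccard indices of 0.21 and 0.44 (4 shared wells in each batch).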
